A study of Mus musculus with 9 samples.

Results

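The oviduct carries eggs, sperm and early embryos, and its fluid holds the glucose, lactate and pyruvate they use. The genes described here encode the 3 solute carrier families that move such substrates across membranes: Slc2, Slc5 and Slc16. Members were all genes whose probe set carries exactly 1 annotated symbol of the form Slc2a, Slc5a or Slc16a followed by a number, with the probe set of the highest mean over the 9 arrays standing for a gene. The rule found 36 genes of 19937 with such a symbol, 12 in Slc2, 11 in Slc5 and 13 in Slc16. It used levels only to choose between probe sets of 1 gene and no difference between groups.

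RNA came from the whole oviduct of CD1 mice, an outbred stock, and was hybridised to 9 Affymetrix arrays. The 3 groups, of 3 arrays each, were sexually immature females of day 21 and sexually mature females, either in estrus or in diestrus. Mating and ovulation fall around estrus, while in diestrus the corpora lutea of the ovary make progesterone. No group had been given hormones, the labels give no age in days for the mature groups, and every array holds RNA pooled from 5 animals. Differences are therefore set against the spread between pools, not between single mice, and whether all pools were made independently is not stated.

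Slc2 genes encode GLUT proteins, most of which let glucose or related sugars pass down their gradient. Most Slc5 proteins use the sodium gradient to pull a solute into the cell; the family includes the glucose carriers of gut and kidney, but also carriers of myo-inositol, iodide, choline and vitamins. Slc16 genes encode MCT proteins, of which a few move lactate, pyruvate and ketone bodies together with protons, while others carry aromatic amino acids or carnitine or have no settled substrate. Tubal epithelium is known for releasing lactate and pyruvate into the lumen, and the cleaving embryo depends on pyruvate before it turns to glucose. In whole tissue, fewer cells of a type and less RNA per cell cannot be told apart.

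All values are log2 intensities, and differences are log2 differences with their standard error (SE) from limma, a linear model fitted over all 28214 probe sets. The threshold for a call was 0.05, on the p adjusted by Benjamini-Hochberg. Array medians lay between 8.85 and 8.90. The correlation between a pair of arrays was 0.992 to 0.996 within groups and 0.990 to 0.995 between groups. Markers of ciliated cells (10 of 10) and of secretory cells (8 of 9 measured) were above the median of every array. Some arrays stood apart in markers of other tissues. The mean of 8 smooth muscle markers was 11.93 on diestrus 3 and 11.06 to 11.32 on the other 8 arrays, and the fibroblast mean was 12.08 there against 11.09 to 11.56. Endothelial markers averaged 9.58 on diestrus 3 and 8.98 to 9.27 on the others. Fat markers averaged 8.96 on immature 1, 8.74 on immature 2 and 8.23 to 8.48 on the remaining 7 arrays. Luteal markers, expressed by the corpus luteum of the ovary, averaged 7.98 to 8.57 except on diestrus 2 (9.83) and diestrus 3 (8.99). Follicle markers averaged 9.57 on immature 2, 8.99 on diestrus 2 and 8.21 to 8.50 elsewhere. Macrophage markers averaged 9.32, 9.41 and 9.72 on the diestrus arrays, and 9.08 to 9.35 on the 6 others. Proliferation markers averaged 9.53 to 9.64 on the immature arrays and 8.51 to 9.27 on the mature ones.

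None of the 36 transporter genes was called in any of the 3 comparisons. For estrus minus immature, 0.0319% of all probe sets were called higher and 0.0532% lower. For diestrus minus immature these shares were 0.294% and 0.705%, and for diestrus minus estrus 0.0673% and 0.0922%. The moderated F test in limma, which asks for any difference among the 3 groups, also called 0 of the 36, beside 0.574% of all probe sets. With 36 genes and background shares under 1% in each of these tests, a count of 0 is near the background. The lowest adjusted p of a transporter (limma) was 0.504 for estrus minus immature (Slc2a3), 0.099 for diestrus minus immature (Slc16a4) and 0.147 for diestrus minus estrus (Slc16a4). In the F test the lowest was 0.123 (Slc16a4).

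At an unadjusted p under 0.05 the transporters also stood close to the background. In estrus minus immature 2 of 36 passed it in limma (5.56%, against 6.52% of all probe sets), namely Slc2a3 and Slc5a9. In diestrus minus immature 3 of 36 passed (8.33%, against 13.4%): Slc16a4, Slc16a6 and Slc5a11. In diestrus minus estrus 4 of 36 passed (11.1%, against 9.33%): Slc16a4, Slc16a6, Slc2a3 and Slc5a3. In the F test 3 of 36 passed, beside 11.4% of all probe sets. Genes whose 3 arrays of 1 group all lay above or all below those of the other numbered 4 of 36 in each comparison (11.1%). The same held for 9.80% of all probe sets in estrus against immature, 18.4% in diestrus against immature and 11.8% in diestrus against estrus.

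The differences themselves were small. In estrus minus immature they ran from -0.20 to 0.43, with a median of 0.02 (0.01 over all probe sets), and 21 genes had a higher and 15 a lower mean. In diestrus minus immature they ran from -0.32 to 0.48, with a median of 0.05 (0.01 over all probe sets), 24 higher and 12 lower. In diestrus minus estrus they ran from -0.51 to 0.29, with a median of 0.01 (-0.01 over all probe sets), 20 higher and 16 lower. By family, 10 of 11 Slc5 genes had a higher mean in estrus than in immature oviduct (median 0.06), beside 5 of 12 Slc2 genes (median -0.02) and 6 of 13 Slc16 genes (median -0.01). Over all probe sets 15477 of 28214 had a higher mean in estrus. Of the 10 Slc5 genes, 6 lay under the array median on all 9 arrays (Slc5a1, Slc5a2, Slc5a7, Slc5a8, Slc5a10 and Slc5a12). Estrus 1 was the highest of the 9 arrays for Slc5a1, Slc5a2, Slc5a8, Slc5a10 and Slc5a12. Without estrus 1 the difference was -0.033 for Slc5a1 and -0.026 for Slc5a5, while Slc5a3 and Slc5a11 stayed higher in estrus. Estrus 1 also had the highest lower quartile of the 9 arrays (7.765), whose part was not tested. None of the single differences was called.

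The 95% intervals, each for 1 gene and 1 comparison taken alone, bound the differences in intensity. The 95% interval lay within 1.5-fold in either direction for 33 of 36 genes in estrus minus immature and in diestrus minus immature, and for 32 of 36 in diestrus minus estrus. It lay within 2-fold for 36 of 36 in each comparison. The genes outside the 1.5-fold range were Slc16a14, Slc5a11, Slc2a3 and Slc5a3, in at least 1 comparison each. The same 1.5-fold range held the interval of 96.0%, 94.7% and 95.3% of all probe sets in the 3 comparisons. RMA intensities compress ratios, so a fold in RNA can exceed the fold in intensity. The 36 include 13 genes under the array median on all 9 arrays, where a narrow interval does not bound a change in RNA.

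**Figure D1:**
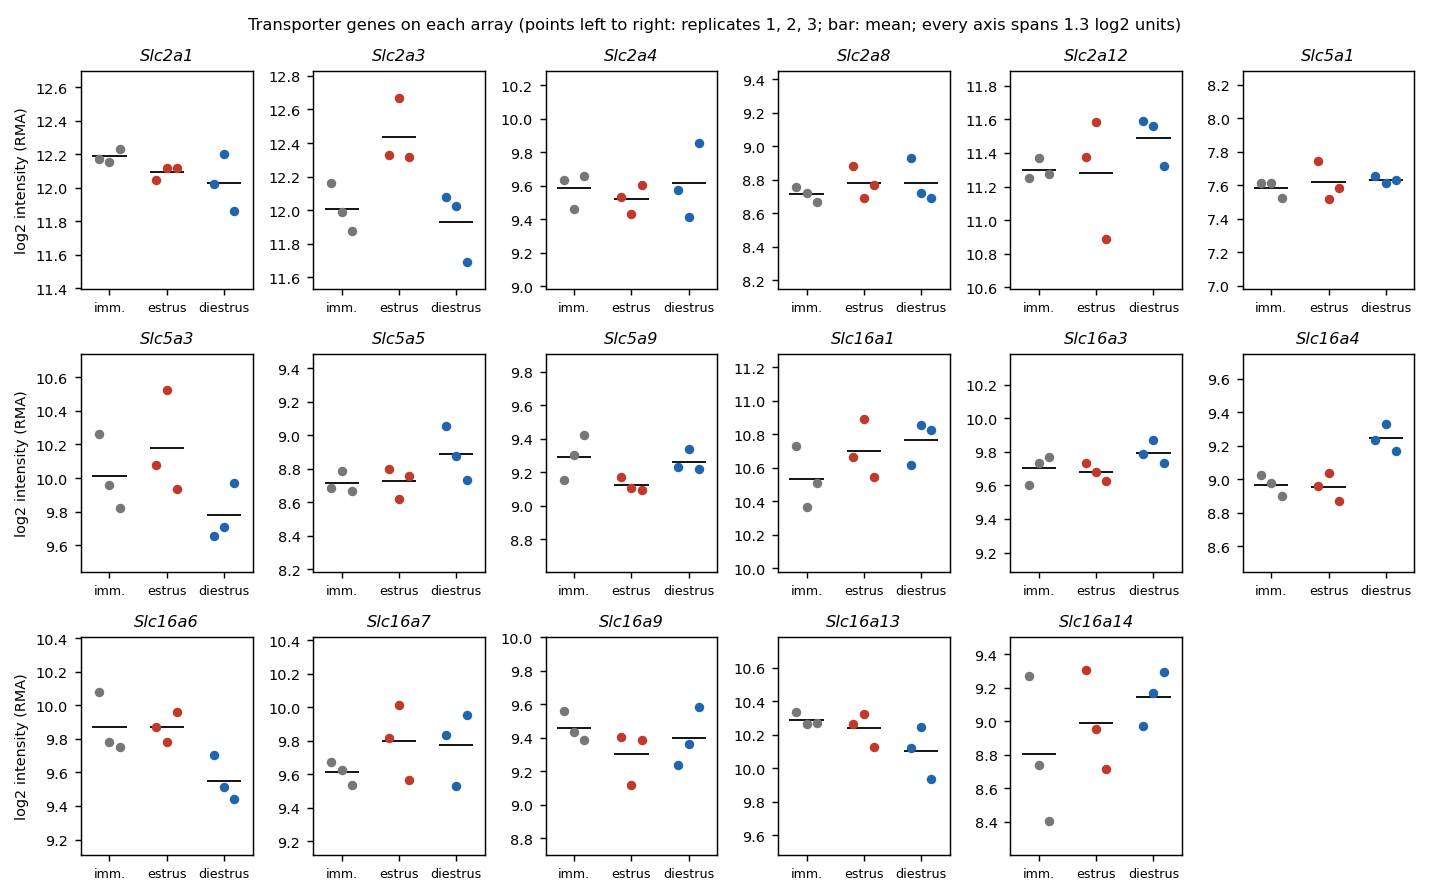
Log2 intensity (vertical axes) of named transporter genes on each of the 9 arrays, by group; points are arrays and bars are group means. Slc2a3 sits at 12.32 to 12.67 on the estrus arrays and at 11.69 to 12.16 on the other 6, and Slc16a4 sits at 9.17 to 9.33 on the diestrus arrays and at 8.87 to 9.04 on the others.

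By level, 15 of the 36 genes stood above the array median on all 9 arrays, 13 stood under it on all 9, and 8 were on both sides. The first 15 were Slc2a1, Slc2a3, Slc2a4, Slc2a6, Slc2a12, Slc5a3, Slc5a6, Slc5a9, Slc16a1, Slc16a3, Slc16a6, Slc16a7, Slc16a9, Slc16a11 and Slc16a13. Intensities depend on each probe set's own probes, so the levels of different genes are not ranked here. The 13 under the median throughout were Slc2a2, Slc2a5, Slc2a7, Slc2a10, Slc2a13, Slc5a1, Slc5a2, Slc5a7, Slc5a8, Slc5a10, Slc5a12, Slc16a5 and Slc16a8. For these, expression above background was not established, and their differences lay between -0.20 and 0.17.

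Among the Slc2 genes, Slc2a3 showed the largest difference. It encodes GLUT3, a high-affinity glucose transporter best known from neurons and also used by the blastocyst. Slc2a3 stood at 12.16, 11.99 and 11.88 on the immature arrays, 12.33, 12.67 and 12.32 on the estrus arrays and 12.08, 12.03 and 11.69 on the diestrus arrays. All 3 estrus arrays were above all arrays of both other groups, which overlapped each other. The means were 12.01 ± 0.15 in immature, 12.44 ± 0.20 in estrus and 11.93 ± 0.21 in diestrus oviduct (SD, n = 3 each). The difference was 0.43 ± 0.13 for estrus minus immature (1.35-fold in intensity; 95% interval 0.14 to 0.72; limma adjusted p = 0.504). For diestrus minus estrus it was -0.51 ± 0.13 (1.42-fold lower; 95% interval -0.80 to -0.22; limma adjusted p = 0.195). Neither passed the threshold over all probe sets. The lowest Slc2a3 value, 11.69, was on diestrus 3, the array with the highest smooth muscle and fibroblast markers. Without that array the estrus to diestrus difference was -0.39, and the part of those markers in the result was not tested.

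Slc2a1 encodes GLUT1, the basal glucose transporter of most cells and of blood-tissue barriers. It stood at 12.17, 12.15 and 12.23 on the immature arrays, 12.04, 12.12 and 12.12 on the estrus arrays and 12.02, 12.20 and 11.86 on the diestrus arrays. The 3 estrus arrays lay under the 3 immature ones by a narrow margin, and the diestrus arrays spread across both. Estrus minus immature was -0.09 ± 0.08 (95% interval -0.27 to 0.09; limma adjusted p = 0.86), and diestrus minus immature was -0.16 ± 0.08 (95% interval -0.34 to 0.02; limma adjusted p = 0.446). Without diestrus 2 the second of these was -0.25, and without diestrus 3 it was -0.076. A difference in Slc2a1 intensity beyond 1.5-fold lies outside both intervals.

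Slc2a12 encodes GLUT12, a facilitative transporter that can respond to insulin. It stood at 11.25, 11.37 and 11.27 on the immature arrays, 11.38, 11.58 and 10.89 on the estrus arrays and 11.59, 11.56 and 11.32 on the diestrus arrays. The lowest value of the gene was on estrus 3, and the groups overlapped. Diestrus minus estrus was 0.21 ± 0.15 (95% interval -0.13 to 0.55; limma adjusted p = 0.818), and it was 0.01 without estrus 3 and 0.36 without estrus 2.

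Slc2a4 encodes GLUT4, the insulin-regulated transporter of muscle and fat. It stood at 9.63, 9.46 and 9.66 on the immature arrays, 9.53, 9.43 and 9.60 on the estrus arrays and 9.58, 9.41 and 9.86 on the diestrus arrays. The groups overlapped, and the highest value was on diestrus 3, which also led in smooth muscle markers, while immature 1 and 2 led in fat markers; the part of either was not tested. The difference of diestrus from immature oviduct was 0.03 ± 0.11 (95% interval -0.21 to 0.27; limma adjusted p = 0.942), and it ran from -0.091 without diestrus 3 to 0.13 without diestrus 2. Slc2a8 encodes GLUT8, which resides largely inside the cell. It stood at 8.76, 8.72 and 8.67 on the immature arrays, 8.88, 8.69 and 8.77 on the estrus arrays and 8.93, 8.72 and 8.69 on the diestrus arrays. Its groups overlapped, and diestrus minus estrus was 0.00 ± 0.08 (95% interval -0.17 to 0.17; limma adjusted p = 0.999).

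Slc2a10 is singled out after its values were seen, because its estrus and immature arrays did not overlap. It stood at 8.76, 8.72 and 8.64 on the immature arrays, 8.60, 8.31 and 8.61 on the estrus arrays and 8.52, 8.46 and 8.82 on the diestrus arrays. Estrus was the lower group (difference -0.20 ± 0.11; limma adjusted p = 0.823), with all 9 values under the array median, and the difference was -0.11 without estrus 2. The remaining 6 genes of the family were Slc2a2, Slc2a5, Slc2a6, Slc2a7, Slc2a9 and Slc2a13, with differences between -0.11 and 0.11. Slc2a2 and Slc2a5 encode the glucose transporter of liver and beta cells and the fructose transporter of the gut.

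**Figure D2:**
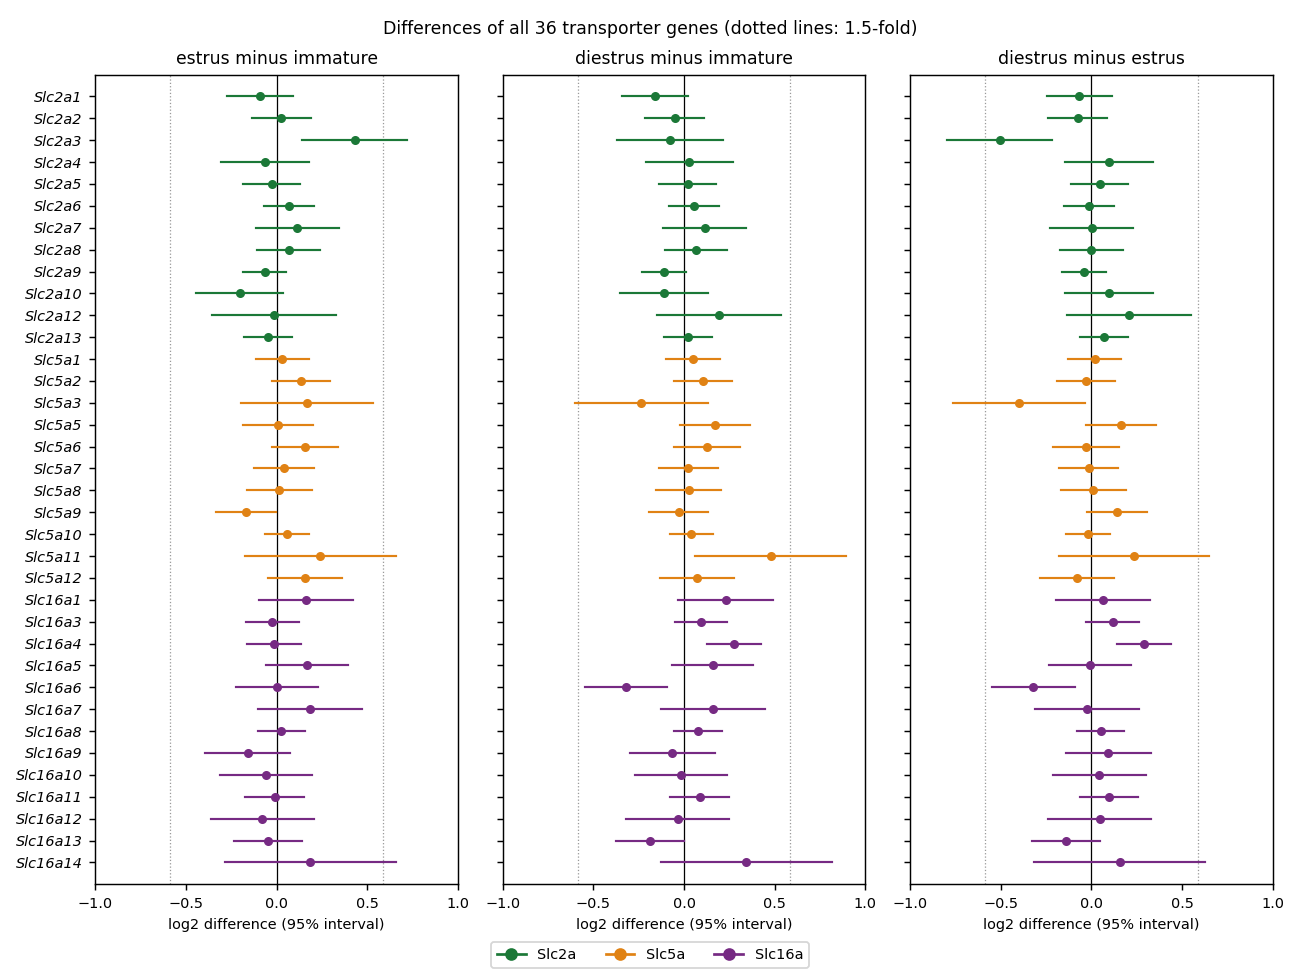
Log2 differences (horizontal axis) of the 36 transporter genes in the 3 comparisons, each point a limma estimate and each line its 95% interval. Slc2a3 lies farthest from 0 in diestrus minus estrus (-0.51), Slc5a11 in diestrus minus immature (0.48), and no gene passed the threshold over all probe sets.

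In the sodium-coupled family, Slc5a1 encodes SGLT1 of gut and kidney, which takes up glucose and galactose with sodium. It stood at 7.61, 7.61 and 7.53 on the immature arrays, 7.75, 7.52 and 7.59 on the estrus arrays and 7.66, 7.61 and 7.63 on the diestrus arrays. All 9 values were under the array median, the groups overlapped, and the differences were 0.03 ± 0.07, 0.05 ± 0.07 and 0.02 ± 0.07 in the 3 comparisons (limma adjusted p = 0.937, 0.812 and 0.994). Slc5a2, the kidney's SGLT2 gene, was under the array median throughout as well.

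Slc5a3 encodes the sodium/myo-inositol cotransporter, which cells use to balance osmotic stress. It stood at 10.26, 9.96 and 9.82 on the immature arrays, 10.08, 10.53 and 9.93 on the estrus arrays and 9.65, 9.71 and 9.97 on the diestrus arrays. Estrus 2 was the highest array, and the groups overlapped. Diestrus minus estrus was -0.40 ± 0.16 (95% interval -0.77 to -0.04; limma adjusted p = 0.471), and -0.23 without estrus 2. In RefSeq the span of Slc5a3 overlaps Mrps6, so probes could take up RNA of both.

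Slc5a11, a second sodium/myo-inositol carrier, had the largest difference of the 36 in diestrus minus immature and was singled out after its values were seen. It stood at 8.31, 8.31 and 8.13 on the immature arrays, 8.41, 8.67 and 8.39 on the estrus arrays and 9.22, 8.61 and 8.36 on the diestrus arrays. All estrus and all diestrus arrays lay above the immature ones, but estrus and diestrus overlapped, and diestrus 1 stood well above the rest. Diestrus minus immature was 0.48 ± 0.18 (1.39-fold; 95% interval 0.06 to 0.89; limma adjusted p = 0.299), and 0.23 without diestrus 1. With diestrus 1 as the only diestrus array, and without immature 2, it was 1.00. Estrus minus immature was 0.24 ± 0.18 (limma adjusted p = 0.855), and 0.15 without estrus 2. Only 1 of the 9 values, that of diestrus 1, exceeded the array median.

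Slc5a9 encodes SGLT4, a carrier of mannose, glucose and fructose. It stood at 9.15, 9.30 and 9.42 on the immature arrays, 9.17, 9.11 and 9.09 on the estrus arrays and 9.23, 9.34 and 9.22 on the diestrus arrays. The diestrus arrays lay above the estrus arrays, while immature overlapped both. Estrus minus immature was -0.17 ± 0.07 (95% interval -0.33 to -0.01; limma adjusted p = 0.756; -0.11 without immature 3), and diestrus minus estrus was 0.14 ± 0.07 (limma adjusted p = 0.635). Slc5a5, the thyroid's iodide carrier gene, stood at 8.69, 8.79 and 8.67 on the immature arrays, 8.80, 8.62 and 8.76 on the estrus arrays and 9.05, 8.88 and 8.73 on the diestrus arrays. The highest values were on diestrus 1 and 2, with overlap through diestrus 3, and diestrus minus estrus was 0.16 ± 0.09 (limma adjusted p = 0.646), and 0.079 without diestrus 1. The other 6 genes, Slc5a2, Slc5a6, Slc5a7, Slc5a8, Slc5a10 and Slc5a12, had differences between -0.08 and 0.16. Of these only Slc5a6, the multivitamin transporter gene, was above the array median on all 9 arrays. Slc5a8 and Slc5a12 encode sodium-coupled carriers of lactate and related monocarboxylates, and both stood under the median throughout.

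Of the Slc16 genes, those for the established lactate and pyruvate carriers were not called in any comparison. Slc16a1 encodes MCT1, which moves lactate and pyruvate in either direction. It stood at 10.73, 10.37 and 10.51 on the immature arrays, 10.66, 10.89 and 10.54 on the estrus arrays and 10.61, 10.86 and 10.82 on the diestrus arrays. The groups overlapped, with the immature arrays 2 and 3 lowest. Between diestrus and immature oviduct the difference was 0.23 ± 0.12 (95% interval -0.03 to 0.49; limma adjusted p = 0.445). The immature array with high follicle markers (immature 2) was the lowest: without it the difference was 0.14, and without it and diestrus 2 and 3 it was -0.0065, with diestrus then resting on 1 array.

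Slc16a3 encodes MCT4, the lactate exporter of strongly glycolytic cells. It stood at 9.60, 9.73 and 9.77 on the immature arrays, 9.73, 9.68 and 9.62 on the estrus arrays and 9.79, 9.87 and 9.73 on the diestrus arrays. The 9 arrays lay close together and the groups overlapped. Diestrus minus estrus was 0.12 ± 0.06 (95% interval -0.03 to 0.26; limma adjusted p = 0.671). Slc16a7 encodes MCT2, a high-affinity pyruvate and lactate carrier. It stood at 9.67, 9.62 and 9.54 on the immature arrays, 9.82, 10.01 and 9.56 on the estrus arrays and 9.84, 9.53 and 9.95 on the diestrus arrays. The groups overlapped, with estrus 3 and diestrus 2 down at the level of the lowest immature array, and estrus minus immature was 0.19 ± 0.13 (95% interval -0.10 to 0.47; limma adjusted p = 0.854). It was 0.079 without estrus 2 and 0.30 without estrus 3.

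The lowest adjusted p of all 36 genes belonged to a member without a settled substrate. Slc16a4 encodes MCT5, named a transporter by its sequence. It stood at 9.03, 8.98 and 8.90 on the immature arrays, 8.96, 9.04 and 8.87 on the estrus arrays and 9.24, 9.33 and 9.17 on the diestrus arrays. All 3 diestrus arrays were above the other 6, and the immature and estrus arrays overlapped. The means were 8.97 ± 0.06, 8.95 ± 0.08 and 9.24 ± 0.08 in immature, estrus and diestrus oviduct (SD, n = 3 each). Diestrus minus immature was 0.28 ± 0.07 (1.21-fold; 95% interval 0.13 to 0.43; limma adjusted p = 0.099). Diestrus minus estrus was 0.29 ± 0.07 (1.22-fold; 95% interval 0.14 to 0.44; limma adjusted p = 0.147). Macrophage markers stood higher in diestrus as well: 8 of 8 had a higher mean in diestrus than in immature and 7 of 8 higher than in estrus, with none called and 2 of the 8 under the array median throughout. So did most luteal (5 of 6 and 6 of 6), smooth muscle (6 of 8 and 7 of 8) and endothelial markers (6 of 8 and 8 of 8). Fewer ciliated (3 of 10 and 4 of 10) and fat markers (1 of 7 and 3 of 7) were higher in diestrus. The macrophage mean was highest on diestrus 3 (9.72), where Slc16a4 had its lowest diestrus value (9.17). The part of any of these markers in the Slc16a4 values was not tested. RefSeq's span of Slc16a4 overlaps Rbm15.

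Slc16a6 encodes MCT7, a carrier of ketone bodies in liver. It stood at 10.08, 9.78 and 9.75 on the immature arrays, 9.87, 9.78 and 9.96 on the estrus arrays and 9.70, 9.51 and 9.44 on the diestrus arrays. All 3 diestrus arrays were below the other 6, diestrus 3 being lowest. Diestrus minus immature was -0.32 ± 0.10 (95% interval -0.54 to -0.09; limma adjusted p = 0.201), and diestrus minus estrus -0.32 ± 0.10 (1.25-fold lower; limma adjusted p = 0.311). Diestrus 2 and 3, the lowest arrays, are those with high luteal markers, and without them and immature 2 the differences were -0.21 and -0.17, diestrus then being 1 array. The part of those markers was not tested. The span of Slc16a6 overlaps Arsg in RefSeq.

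Slc16a13, a lactate carrier gene studied in liver, stood at 10.33, 10.26 and 10.27 on the immature arrays, 10.27, 10.33 and 10.13 on the estrus arrays and 10.12, 10.24 and 9.94 on the diestrus arrays. The diestrus arrays lay below the immature ones, and estrus overlapped both. The diestrus minus immature difference was -0.19 ± 0.08 (95% interval -0.38 to 0.00; limma adjusted p = 0.375). It was -0.10 without diestrus 3, the array highest in muscle and fibroblast markers, whose part was not tested. Slc16a14, whose substrate is not settled, stood at 9.27, 8.74 and 8.40 on the immature arrays, 9.30, 8.95 and 8.71 on the estrus arrays and 8.97, 9.17 and 9.29 on the diestrus arrays. Arrays of 1 group differed here by more than the groups did, the immature arrays spanning 8.40 to 9.27. For diestrus minus immature it was 0.34 ± 0.21 (95% interval -0.13 to 0.81; limma adjusted p = 0.541), and it ran from 0.14 without immature 3 to 0.57 without immature 1.

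Slc16a9 encodes MCT9, a carrier of carnitine. It stood at 9.56, 9.44 and 9.38 on the immature arrays, 9.40, 9.12 and 9.38 on the estrus arrays and 9.24, 9.36 and 9.59 on the diestrus arrays. The groups overlapped, and estrus minus immature was -0.16 ± 0.10 (limma adjusted p = 0.848), and -0.067 without estrus 2. A second probe set of Slc16a9 stood at 5.66 to 5.77 on all 9 arrays, far under their medians, and was not used. The remaining 5 genes were Slc16a5, Slc16a8, Slc16a10, Slc16a11 and Slc16a12, with differences between -0.08 and 0.17. Slc16a8 encodes the lactate carrier of the retinal pigment epithelium, and Slc16a10 a carrier of aromatic amino acids. Slc16a11 and Slc16a13 are neighbours in RefSeq, as are Slc2a5 and Slc2a7. The spans of Slc16a3, Slc2a12, Slc5a2, Slc5a6 and Slc5a10 each overlap another coding gene there.

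**Figure D3:**
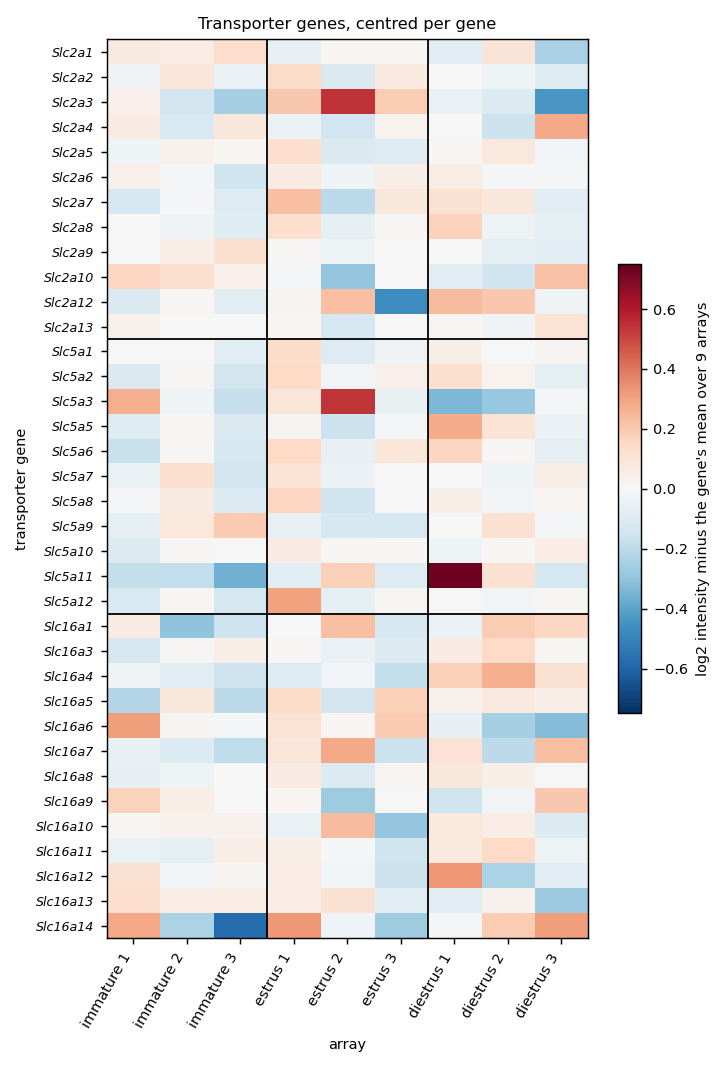
Log2 value of each of the 36 transporter genes on each of the 9 arrays minus that gene's mean over the 9 arrays (colour scale), genes grouped by family. No column is of 1 colour throughout, and Slc5a11 on diestrus 1 is the darkest cell, in a gene whose values span 1.09 over the 9 arrays.

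Across the 36 genes, no group held the high or the low values as a whole. The highest of the 3 group means was in diestrus for 15 genes, in estrus for 13 and in immature oviduct for 8. The lowest was in immature oviduct for 17, in estrus for 12 and in diestrus for 7. Single arrays stood out as well. Estrus 1 was the highest of the 9 arrays for 10 genes, and estrus 2 the lowest for 10. Estrus 1 had the highest median of the 9 arrays and estrus 2 the lowest (8.90 and 8.85), which moves with these counts; its part was not tested. The median pooled SD of the transporters was 0.108, against 0.0957 over all probe sets.

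The genes around the transporters were described from 7 lists: glycolysis, lactate and pyruvate conversion, glycogen and glucose release, control of transporters by insulin and energy signals, partner proteins of MCTs, the sodium pump, and response to low oxygen. They held 96 measured genes that are not transporters of the 3 families. At an unadjusted p under 0.05 in limma, 13 of the 96 passed in estrus minus immature, beside 6.52% of all probe sets. In diestrus minus immature 22 of the 96 passed (13.4% of all probe sets), and in diestrus minus estrus 27 of the 96 (9.33%). Each time the share of the 96 was above that of all probe sets. The lists were chosen with earlier results known, and the reason was not tested. In pairwise tests 1 of the 96 was called, in diestrus minus immature, where 282 of 28214 probe sets were called in all. That gene was G6pc3, which encodes a widely expressed glucose-6-phosphatase catalytic subunit. It stood at 12.21, 12.21 and 12.29 on the immature arrays, 12.04, 12.01 and 12.10 on the estrus arrays and 11.89, 11.95 and 11.71 on the diestrus arrays. The 3 groups did not overlap, immature being highest and diestrus lowest. G6pc3 fell by 0.39 ± 0.07 from immature to diestrus (95% interval -0.54 to -0.23; 1.31-fold lower; limma adjusted p = 0.0393). The call was narrow: the limma adjusted p was 0.0402 without diestrus 3 and 0.0509 to 0.138 without any other single array. Leaving out any of those 8 ended the call. The call was kept with the filter on low intensity, median centring, the trend with a robust prior, array weights and the mean of probe sets. Cyclic loess (0.0578), fitting only the groups compared (0.098) and a block for replicate number (0.0912) ended it too, as did leaving out immature 2, diestrus 2 and diestrus 3 together (0.416), while the difference stayed between -0.44 and -0.32.

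Irs1, which encodes a docking protein of the insulin receptor, was called in the F test (limma adjusted p = 0.0468). It stood at 11.36, 11.20 and 11.18 on the immature arrays, 11.32, 11.32 and 11.34 on the estrus arrays and 10.98, 10.94 and 10.82 on the diestrus arrays. The diestrus arrays were below the other 6. Its diestrus minus immature difference was -0.33 ± 0.07 and diestrus minus estrus -0.41 ± 0.07 (limma adjusted p = 0.0542 and 0.0549). Without single arrays these differences stayed between -0.37 and -0.27 and between -0.45 and -0.37, but the F call was lost whichever array was left out (limma adjusted p = 0.0637 to 0.167). It was also lost with cyclic loess (0.0714), with the replicate block (0.0844), with the mean of all Irs1 probe sets (0.162) and without immature 2, diestrus 2 and diestrus 3 together (0.671). It was kept with the filter on low intensity (0.0312), median centring (0.0449), the trend with a robust prior (0.0488) and array weights (0.00283). With the mean of all Irs1 probe sets the differences were -0.17 and -0.23. In limma, diestrus minus immature was called with the filter (adjusted p = 0.0386), median centring (0.0497) and array weights (0.0163), and diestrus minus estrus with the filter (0.0309), array weights (0.00134) and without immature 1 (0.0416).

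In some lists most genes had a lower mean in estrus than in immature oviduct. Of 19 measured glycolysis genes, 15 had a lower mean in estrus (median -0.08, against 0.01 over all probe sets), and of 18 genes of lactate and pyruvate conversion 17 did (median -0.06). Over all probe sets 12725 of 28214 had a lower mean in estrus. In diestrus minus estrus 14 of the 19 glycolysis genes had a higher mean (median 0.07). Of the 18 lactate and pyruvate genes 8 were higher and 10 lower there (median -0.03), and 13219 of 28214 probe sets were higher. Both comparisons use the same 3 estrus arrays. No gene of these lists was called in these comparisons. The proliferation markers also had lower means in estrus (7 of 7, median -0.90, none called), and their part was not tested. Ldha, the lactate dehydrogenase subunit that favours lactate formation, stood at 12.64, 12.72 and 12.77 on the immature arrays, 12.56, 12.50 and 12.47 on the estrus arrays and 12.32, 12.41 and 12.52 on the diestrus arrays. Both mature groups lay below the immature arrays and overlapped each other. Its difference for diestrus minus immature was -0.29 ± 0.07 (95% interval -0.44 to -0.14; limma adjusted p = 0.0826), and estrus minus immature -0.20 ± 0.07 (limma adjusted p = 0.565). Without diestrus 3 the first of these was -0.34 and was called (limma adjusted p = 0.0411). With array weights, which rest the estrus mean mainly on 1 array, they were -0.30 and -0.22. Both were then called (limma adjusted p = 0.018 and 0.0389), beside 4.57% and 3.63% of all probe sets. Ldhb, the subunit that favours pyruvate, stood at 10.78, 10.66 and 10.90 on the immature arrays, 10.58, 10.77 and 10.76 on the estrus arrays and 10.77, 10.98 and 11.04 on the diestrus arrays. The groups overlapped, and diestrus minus immature was 0.15 ± 0.09 (limma adjusted p = 0.525; 0.095 without immature 2 and 0.23 without diestrus 1).

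Bsg encodes basigin, the partner that carries MCT1 and MCT4 to the membrane. It stood at 12.29, 12.34 and 12.34 on the immature arrays, 12.35, 12.33 and 12.23 on the estrus arrays and 12.36, 12.42 and 12.34 on the diestrus arrays. The 9 arrays lay close together, and diestrus minus immature was 0.05 ± 0.05 (95% interval -0.07 to 0.17; limma adjusted p = 0.769), and 0.023 without diestrus 2. Txnip encodes a protein that drives internalisation of GLUT1. It stood at 12.43, 12.20 and 12.43 on the immature arrays, 12.28, 12.76 and 12.35 on the estrus arrays and 12.74, 12.81 and 12.83 on the diestrus arrays. The diestrus arrays lay above the immature ones and were close together, while estrus 2 reached into their range. For diestrus minus immature the difference was 0.44 ± 0.12 (1.36-fold; 95% interval 0.18 to 0.71; limma adjusted p = 0.132). Without estrus 2, which alters only the estimate of the spread, it was called (limma adjusted p = 0.0398). With array weights it was 0.45 and called (limma adjusted p = 0.0222). So was diestrus minus estrus, at 0.43 (limma adjusted p = 0.00519). With these weights 4.57% and 11.8% of all probe sets were called in the 2 comparisons. Pdk4, the kinase that restrains pyruvate entry into the citric acid cycle, stood at 8.05, 8.22 and 8.16 on the immature arrays, 8.09, 8.22 and 7.86 on the estrus arrays and 8.34, 8.31 and 8.38 on the diestrus arrays. The diestrus arrays were above the other 6, all 9 values lay under the array median, and diestrus minus immature was 0.20 ± 0.09 (limma adjusted p = 0.371).

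The medians of the other lists were small too, and some were farther from 0 than those of glycolysis. In diestrus minus immature the median was 0.01 over 17 genes of glycogen and glucose release, -0.12 over 20 genes of transporter control, 0.05 over 3 MCT partners, 0.08 over 9 sodium pump genes and 0.05 over 12 low-oxygen genes, which include Slc2a1. Over all probe sets it was 0.01. Of the 20 transporter control genes 13 had a lower mean in diestrus than in immature oviduct, beside 13071 of 28214 probe sets. In diestrus minus estrus the low-oxygen median was 0.14, with 8 of 12 genes higher. Over all probe sets that median was -0.01, with 13219 of 28214 higher. Single list genes, picked after their values were seen, differed more than these medians. Arrdc4 was -0.26 ± 0.12 for diestrus minus immature and -0.48 ± 0.12 for diestrus minus estrus (limma adjusted p = 0.374 and 0.176). Fxyd6 was 0.26 ± 0.06 and 0.25 ± 0.06 in the same comparisons (limma adjusted p = 0.0843 and 0.161). G6pc3 was the 1 gene of these lists called in diestrus minus immature.

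**Figure D4:**
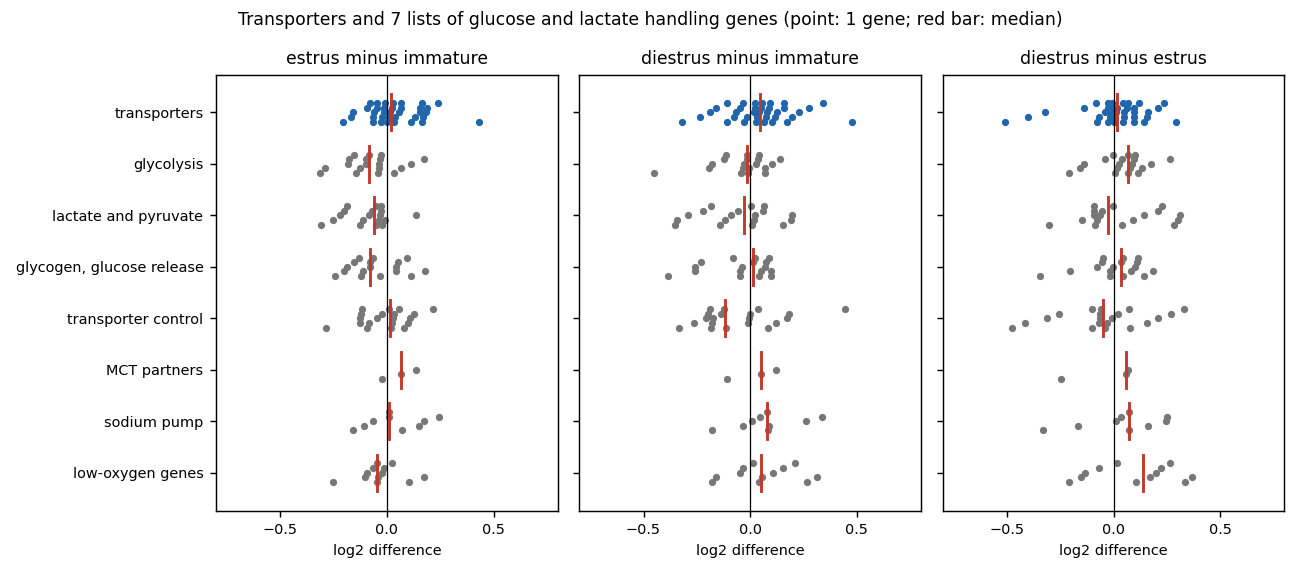
Log2 differences (horizontal axis) of the genes in the 7 lists around the transporters, in the 3 comparisons; each point is a gene, the bar is a list's median, and the top line of each panel holds the 36 transporters. The glycolysis median is -0.08 in estrus minus immature and 0.07 in diestrus minus estrus. The transporter control median is -0.12 in diestrus minus immature, and the low-oxygen median is 0.14 in diestrus minus estrus. G6pc3 at -0.39 is the single gene called in a pairwise comparison.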

How the data were processed

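Per the labels, RNA of whole oviduct pools was extracted with RNAzol and hybridised to Affymetrix gene arrays. The deposited values are log2 intensities made by the authors with RMA in Affymetrix Expression Console, per the submitters' processing notes, and RMA corrects background, normalises quantiles and summarises probe sets. Neither versions nor log base nor genome build is given in the sources used here. The range of the values fits log2, and no coordinates are printed.

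By the annotation table of the platform, 21640 probe sets carry 1 symbol, 1321 several and 5253 none. All 36 members matched RefSeq (GRCm38.p6) by Entrez identifier.

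A single limma fit (lmFit and eBayes, version 3.58.1, in R 4.3.3) took all 9 arrays and gave two-sided tests, with residual degrees of freedom of 6 and prior ones of 3.60. P-values were adjusted by Benjamini-Hochberg over 28214 probe sets. The median SE of a difference was 0.0763, and the number of arrays limits the precision. Plots were drawn in Python 3.11.15 with matplotlib 3.10.9 and pandas 2.3.3. The method was run on simulated data with independent noise on each array. Such data lack the marker shifts seen here on single arrays, so the run does not bear on those.

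The members, gene lists and marker lists were chosen with earlier results of these data known. Named were members called, per comparison the 3 largest differences in each direction among members whose mean in the higher group exceeded the median of all probe sets, and in any case Slc2a1, Slc2a3, Slc2a4, Slc2a8, Slc2a12, Slc5a1, Slc5a3, Slc16a1, Slc16a3 and Slc16a7. From the lists, up to 4 called genes each were named, and in any case Ldha, Ldhb, Bsg, Txnip and Pdk4.

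Alternatives were a filter on low intensity, a replicate block, array weights, a trend with robust prior variance, median centring, cyclic loess, the mean of a gene's probe sets, only the groups compared, each array left out, and, chosen after seeing the data, immature 2, diestrus 2 and diestrus 3 left out together.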

Additional observations from a re-analysis of the deposited data

How the results depend on the processing

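Of the 70 differences of named genes, 41 kept their sign under every alternative run for them (at most 18 each), and of 1246 alternative values 63 had the other sign. None of the sign changes concerned a called difference. No member was called under the replicate block, the filter on low intensity, cyclic loess, median centring, the trend with a robust prior, the mean of probe sets, the fit of only the groups compared, with any array left out, or without immature 2, diestrus 2 and diestrus 3. With array weights in limma, 0 members were called for estrus minus immature, 1 for diestrus minus immature (Slc16a4), 8 for diestrus minus estrus and 8 in the F test, beside 3.63%, 4.57%, 11.8% and 14.4% of all probe sets. The weights were 8.16 for estrus 3 and 0.325 to 2.16 for the other 8 arrays, so the estrus mean then rests mainly on 1 array. The 8 for diestrus minus estrus were Slc16a3, Slc16a4, Slc16a6, Slc16a10, Slc16a11, Slc2a3, Slc2a12 and Slc5a9, and Slc2a12 moved from 0.21 to 0.60 (limma adjusted p = 0.00872). Why the weights differ was not tested.

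Correlations of deviations from the group means were -0.294 to 0.169 for same-numbered arrays and -0.259 to 0.291 for differently numbered ones. With 3 arrays per group these correlations cannot show whether the numbers pair the pools, and pairing is not stated. With the replicate block, calls over all probe sets went from 24 to 4, from 282 to 121, from 45 to 13 and, in the F test, from 162 to 68. Over all probe sets, the filter on low intensity gave 12, 330, 130 and 256 calls in the same order, cyclic loess 5, 205, 60 and 165, and only the groups compared 23, 85 and 0 in the pairwise tests. Without immature 2, diestrus 2 and diestrus 3 there were 2, 3, 0 and 3 calls, with diestrus resting on 1 array assumed to vary like the others. Leaving out single arrays gave 1 to 95, 41 to 533, 1 to 105 and 23 to 372 calls in the same order, the highest counts all without diestrus 3. Other scalings moved the median of all probe sets by at most 0.013.

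The differences that changed sign were small and uncalled, and the cause was not tested. With array weights, for estrus minus immature the values were Slc16a14 -0.12, Slc16a7 -0.031, Slc2a4 0.013, Slc5a1 -0.0015 and Slc5a3 -0.085. For diestrus minus immature they were Slc2a4 -0.063 and Slc5a9 0.020. For diestrus minus estrus they were Slc16a13 0.028, Slc16a7 0.082, Slc16a9 -0.024, Slc2a4 -0.076 and Slc2a8 0.0074. With cyclic loess, for estrus minus immature the values were Slc2a12 0.020, Slc5a1 -0.011 and Slc5a5 -0.0067. With median centring, for estrus minus immature the values were Slc16a6 -0.0083. Without immature 2, diestrus 2 and diestrus 3 together, for estrus minus immature the values were Slc16a6 -0.042 and Slc2a12 0.022. For diestrus minus immature they were Ldhb -0.066, Slc16a1 -0.0065, Slc2a3 0.059 and Slc2a4 -0.0705. For diestrus minus estrus they were Slc16a1 -0.086, Slc16a14 -0.016, Slc16a7 0.039, Slc16a9 -0.064 and Slc2a8 0.15. Leaving out single arrays gave these ranges. For estrus minus immature, Slc16a13 -0.091 to 0.0087, Slc16a14 -0.014 to 0.42, Slc16a3 -0.074 to 0.012, Slc16a4 -0.056 to 0.029, Slc16a6 -0.059 to 0.11, Slc2a12 -0.16 to 0.18, Slc5a1 -0.033 to 0.082, Slc5a3 -0.0073 to 0.29, Slc5a5 -0.026 to 0.064 and Txnip -0.038 to 0.20. For diestrus minus immature, Slc16a9 -0.16 to 0.013, Slc2a3 -0.15 to 0.044, Slc2a4 -0.091 to 0.13, Slc2a8 -0.0092 to 0.11 and Slc5a9 -0.099 to 0.035. For diestrus minus estrus, Slc16a1 -0.013 to 0.16, Slc16a7 -0.14 to 0.097, Slc16a9 -0.0018 to 0.17, Slc2a1 -0.15 to 0.017, Slc2a4 -0.026 to 0.20, Slc2a8 -0.075 to 0.051, Slc5a1 -0.033 to 0.082 and Slc5a11 -0.010 to 0.42.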
